A study of Mus musculus with 8 samples.

Results

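The G1 and S phase genes are 37 genes that carry a cell into and through DNA replication, and they were followed here in rib chondrocytes, the cells that form the cartilage of the ribs. They were listed by name, and each was represented by the probe set with the highest mean signal over 8 arrays among those that the platform annotation gives to 1 symbol. Such a probe set was found for 36 of the 37 genes, out of 18193 genes represented in that way. Chaf1a had none and is not described further.

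The samples came from FVB mouse embryos late in gestation (E18.5). In each of 4 litters, embryos were sorted by genotype into a sample carrying a Hoxc8 transgene and a sample of wild-type controls, giving 4 transgenic and 4 control arrays. The litters are numbered 1 to 4 as the replicates are. Rib cages of both genotypes were digested with collagenase and trypsin, strained and put in Trizol, and the biotin-labelled RNA was hybridised to Affymetrix arrays. The labels do not give the promoter of the transgene, the number of embryos in a sample or their sex.

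Hoxc8 had signals of 4096, 3400, 3810 and 4235 in the transgenic samples of litters 1 to 4, against 4112, 3066, 3755 and 3143 in the control samples. The groups overlapped, and the fitted difference was 0.15 log2 (SE 0.12, limma adjusted p = 0.9999). The labels do not say which stretch of Hoxc8 was introduced, so whether this probe set detects the transgene is unknown and the signal does not check the genotypes. Cartilage markers were strong on every array: all 12 chondrocyte markers passed the signal filter, with mean signals of 3906 (Matn1) or more. Since whole digests were hybridised, fewer cells in S phase and less RNA per cell cannot be told apart.

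Progress from G1 into S phase begins when D cyclins with Cdk4 or Cdk6, and then E cyclins with Cdk2, phosphorylate the retinoblastoma protein and release E2F transcription factors. E2F factors then drive genes of origin licensing, in which the origin recognition complex, Cdc6 and Cdt1 load the MCM helicase, and genes of DNA synthesis. In growth cartilage, proliferating chondrocytes pass through this programme before they leave the cycle and become hypertrophic.

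Since E2F factors are known to bind such genes, sequences of the E2F type were looked for in their promoters. RefSeq promoters (build GRCm38.p6, 250 bases before to 50 after a gene's start) were searched on both strands for the octamers TTTCCCGC, TTTCGCGC, TTTGCCGC and TTTGGCGC, with overlapping matches counted. Promoters of 31 of the 37 genes were in the table; Ccnd1, Ccnd2, Ccne2, Gins1, Gins2 and Mcm4 were not. At least 1 match was found for 14 of the 31 genes (45.2%), for 16 of 47 other replication genes (34.0%) and for 1 of 32 genes of G2 and mitosis (3.12%). Among genes tested on the arrays it was found for 435 of 8911 (4.88%), and over the whole table for 704 of 27025 genes (2.6%). A match is a stretch of letters and not a shown binding site.

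Below are the 160 bases that precede the start of 6 members, with matches in capitals. Mcm6, Mcm5, Orc1 and Cdc6 show where matches lie in licensing genes, and Cdt1 and Mcm2 are the 2 members that differed between litters in the arrays. Mcm6 holds 3 matches and Mcm5 holds 2, and in each gene 2 of them overlap on opposite strands. In Orc1 and Cdc6 there is 1 match each. The stretches of Cdt1 and Mcm2 hold none. Cdt1 has 1 match after its start, shown last, and Mcm2 has none in the window searched.
Mcm6 (chr1:128359706-128359865, minus strand): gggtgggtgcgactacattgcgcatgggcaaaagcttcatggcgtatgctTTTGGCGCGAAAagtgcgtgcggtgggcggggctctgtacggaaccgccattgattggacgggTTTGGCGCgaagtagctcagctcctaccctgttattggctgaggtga
Mcm5 (chr8:75109349-75109508, plus strand): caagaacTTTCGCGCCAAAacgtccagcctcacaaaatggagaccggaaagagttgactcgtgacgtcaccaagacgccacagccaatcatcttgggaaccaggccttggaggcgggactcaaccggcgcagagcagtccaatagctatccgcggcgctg
Orc1 (chr4:108579294-108579453, plus strand): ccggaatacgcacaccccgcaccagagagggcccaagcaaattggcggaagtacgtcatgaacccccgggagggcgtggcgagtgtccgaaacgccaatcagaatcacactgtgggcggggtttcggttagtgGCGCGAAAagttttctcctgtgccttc
Cdc6 (chr11:98907991-98908150, plus strand): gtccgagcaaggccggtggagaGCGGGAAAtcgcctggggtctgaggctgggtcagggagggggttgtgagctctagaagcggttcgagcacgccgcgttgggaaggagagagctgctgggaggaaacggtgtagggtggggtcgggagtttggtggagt
Cdt1 (chr8:122567855-122568014, plus strand): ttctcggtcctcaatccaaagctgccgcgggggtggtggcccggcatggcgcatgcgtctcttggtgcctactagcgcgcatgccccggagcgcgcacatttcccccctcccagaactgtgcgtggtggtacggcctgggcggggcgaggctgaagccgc
Mcm2 (chr6:88898781-88898940, minus strand): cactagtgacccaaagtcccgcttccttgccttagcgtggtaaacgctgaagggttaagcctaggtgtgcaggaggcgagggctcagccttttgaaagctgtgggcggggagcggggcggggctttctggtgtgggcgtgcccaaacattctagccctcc
Cdt1, bases 25 to 48 after the start (chr8:122568039-122568062, plus strand): actaccttTTTGGCGCcatggcgc

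The first comparison asked whether these genes differ between transgenic and control chondrocytes. All 36 genes with a probe set passed the filter on mean signal (at least 110.03), and 0 of 36 were called in either direction by limma at an adjusted p of 0.05. Over all genes tested, 0 of 10989 (0%) were called. Unadjusted p-values under 0.05 were found for 0 of the 36 members and for 100 of 10989 genes tested. With the litter as a block they were found for 0 members and 338 of all genes. At so small a share over all genes, 0 of 36 does not set the members apart. The fitted difference was positive for 13 members and negative for 23, with a median of -0.03 log2, against a median of 0.00 over all genes tested. This lean depended on the scaling: with arrays centred on their medians, Ccne2, Cdk4, Mcm7, Pcna and Rfc4 changed sign, which gave 18 positive and 18 negative members and a median of -0.0017 log2. The split was also 18 to 18 without transgenic replicate 2, and 19 positive to 17 negative without transgenic replicate 4 or without litter 3. In no member were the 4 transgenic arrays all above or all below the 4 control arrays, a pattern seen in 0.992% of all genes tested.

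For the probe sets that stand for the members, the intervals bound how large a difference could be. They come from the fit without litters, where the median SE of the members was 0.125. With the litter as a block it was 0.096. All 36 members had a 95% confidence interval within 2-fold in either direction, against 98.1% of all genes tested. Within 1.5-fold there were 34 (94.4%), against 82.3% of all genes. The members were bright as a set, with 29 above a filter at the 75th percentile of mean signal. Whether signal explains their narrower intervals was not tested. The 2 that reached past 1.5-fold were E2f2, from -0.18 to 0.65, and Tyms, from -0.59 to 0.34 log2. The widest interval was that of Cdt1, from -0.55 to 0.47 log2, which differed between litters as described below. These differences are on a log2(signal + 22.1) scale, which understates changes of dim genes. Less precise further probe sets, with an SE of 0.54 for Cdc45, 0.37 for Ccnd2 and 0.27 for E2f3, are not covered by the 2-fold bound.

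**Figure D1:**
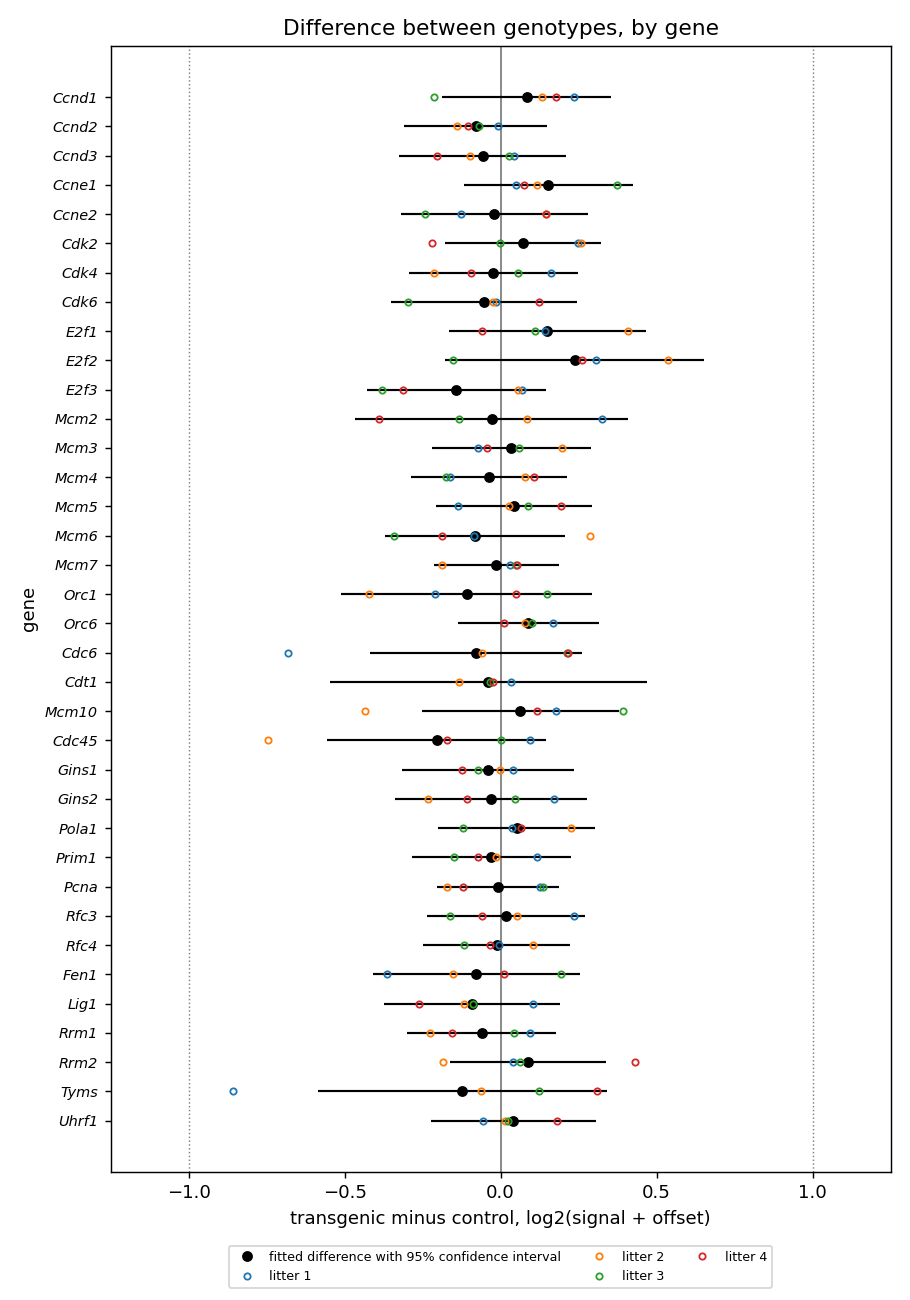
Difference in log2(signal + offset) between transgenic and control samples (x axis) for 36 G1 and S phase genes (y axis). Black points with bars are the fitted difference and its 95% confidence interval over 4 arrays a genotype, open circles are the differences within litters 1 to 4, and dotted lines mark 2-fold. All 36 intervals stay within the dotted lines.

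Among the D cyclins, Ccnd2 had signals of 7450, 7334, 7397 and 6037 in transgenic samples of litters 1 to 4, against 7491, 8075, 7763 and 6498 in controls. The transgenic value was the lower one in all 4 litters. The groups overlapped, and the difference was -0.08 log2, with an SE of 0.11 without and 0.06 with the litter as a block. Ccnd2 was called in neither fit. Ccnd3 gave 4568, 3602, 4711 and 3450 in transgenic samples, against 4438, 3856, 4621 and 3976 in controls (-0.06 log2, SE 0.12). Ccnd1 averaged 1558 ± 95.1 in transgenic and 1480 ± 231 in control samples (SD, n = 4 each).

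Of the E cyclins, which act with Cdk2 at the start of S phase, Ccne1 had one of the 3 smallest unadjusted genotype p-values of the members. Its signals were 774.5, 740.3, 914.8 and 899.3 in transgenic samples, against 748.6, 680.6, 701.9 and 851.7 in controls. Transgenic was higher in 4 of 4 litters, the groups overlapped, and the difference was 0.15 log2 (SE 0.13, limma unadjusted p = 0.244, adjusted p = 0.9999). With the litter as a block its SE was 0.10. A second probe set of Ccne1 stood at 0.17 log2 (SE 0.16). Ccne2 gave 1126, 1128, 1320 and 1328 in transgenic samples, against 1232, 1018, 1564 and 1198 in controls, with no order between the groups (-0.02 log2, SE 0.14).

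None of the 3 kinase genes was called. Cdk4, a partner of the D cyclins, had signals of 4379, 3230, 3884 and 4433 in transgenic samples, against 3914, 3751, 3732 and 4739 in controls (-0.02 log2, SE 0.12). Its groups overlapped, and its 2 other probe sets had the opposite sign, at 0.07 and 0.10 log2. Cdk2 stood at 0.07 log2 (SE 0.12) and Cdk6 at -0.05 log2 (SE 0.14).

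E2f2, an activating E2F factor, had the largest positive difference of the 36. Its signals were 206.9, 221.3, 213.5 and 280.0 in transgenic samples, against 163.1, 145.6, 239.9 and 229.7 in controls. It was higher in 3 of 4 litters, with a difference of 0.24 log2 (SE 0.19, limma unadjusted p = 0.237, adjusted p = 0.9999). Another probe set of E2f2 stood at -0.27 log2 (SE 0.20), so the sign depends on the probe set. E2f3 gave 582.7, 526.6, 500.1 and 449.7 in transgenic samples, against 554.2, 506.2, 657.8 and 564.5 in controls (-0.14 log2, SE 0.13), and E2f1 stood at 0.15 log2 (SE 0.15). A second probe set of E2f3 stood at -0.52 log2 (SE 0.27, limma unadjusted p = 0.0799, adjusted p = 0.9999).

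The 6 genes of the MCM helicase, which unwinds DNA at the replication fork, had differences between -0.08 log2 (Mcm6) and 0.04 log2 (Mcm5). Mcm7 had signals of 6687, 6406, 6199 and 6591 in transgenic samples, against 6543, 7298, 5991 and 6352 in controls, a difference of -0.01 log2 (SE 0.09). These values interleave. Mcm3 and Mcm4 stood at 0.03 (SE 0.12) and -0.04 log2 (SE 0.12).

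Among the loading factors, Cdt1, which brings the MCM helicase to origins, gave 3690, 4037, 3734 and 2075 in transgenic samples, against 3604, 4433, 3821 and 2113 in controls. The 2 genotypes followed each other litter by litter, with differences of 0.03, -0.13, -0.03 and -0.03 log2 within litters 1 to 4. Its fitted difference was -0.04 log2, with an SE of 0.23 without and 0.07 with the litter as a block. Orc6, a subunit of the origin recognition complex, was higher in 4 of 4 litters (1095 ± 40.1 in transgenic and 1028 ± 45.1 in control samples, SD, n = 4 each; 0.09 log2, SE 0.10). With the litter as a block its SE was 0.09. Orc1 and Cdc6 stood at -0.11 (SE 0.19) and -0.08 log2 (SE 0.16).

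Cdc45, which joins the MCM helicase and the GINS complex in the active helicase, had the largest negative difference of the 36 probe sets that stand for members. It gave 399.0, 284.3, 340.8 and 401.4 in transgenic samples, against 372.0, 491.4, 340.7 and 455.1 in controls. The difference of -0.21 log2 (SE 0.16, limma unadjusted p = 0.228, adjusted p = 0.9999) came mostly from litter 2, at -0.74, while the other litters stood at 0.10, 0.00 and -0.17. Gins2 gave 1007, 779.9, 812.3 and 1036 in transgenic samples, against 891.7, 919.8, 785.2 and 1119 in controls (-0.03 log2, SE 0.14). Gins1 stood at -0.04 (SE 0.13) and Mcm10 at 0.06 log2 (SE 0.15).

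Among genes of DNA synthesis, 0 were called as well. Prim1, the catalytic subunit of primase, gave 3486, 3594, 2709 and 3439 in transgenic samples, against 3215, 3629, 3006 and 3614 in controls (-0.03 log2, SE 0.12), and Pola1, of its partner polymerase alpha, stood at 0.05 log2 (SE 0.12). Pcna, the sliding clamp, gave 14810, 12860, 13480 and 13370 in transgenic samples, against 13570, 14480, 12280 and 14530 in controls. Its difference of -0.01 log2 had the narrowest SE of the members, 0.09. The clamp loader genes Rfc3 and Rfc4 stood at 0.02 and -0.01 log2, the flap nuclease gene Fen1 at -0.08 and the ligase gene Lig1 at -0.09 log2.

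Rrm2, the small subunit of ribonucleotide reductase, gave 4937, 4063, 4625 and 4806 in transgenic samples, against 4800, 4617, 4424 and 3563 in controls (0.09 log2, SE 0.12). It was higher in 3 of 4 litters. Its partner subunit Rrm1 stood at -0.06 log2 (SE 0.11). Tyms, which makes thymidylate, had signals from 106.7 to 211.3 and a difference of -0.12 log2 (SE 0.22). Uhrf1, which keeps DNA methylation through replication, gave 1449, 1359, 1401 and 1241 in transgenic samples, against 1509, 1346, 1377 and 1092 in controls (0.04 log2, SE 0.12). A second probe set of Uhrf1 had the opposite sign, at -0.25 log2 (SE 0.23).

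In 3 of the 36 members, Ccnd2, Ccne1 and Orc6 (8.33%), the litters were unanimous in sign, against 10.7% of all genes tested. Other probe sets of the members were also tested: 39 of them, from 26 members, gave 0 calls between genotypes, and 17 from 14 members had the opposite sign to the probe set that stands for the gene. For 5 members, Ccne1, Cdk4, Mcm5, Fen1 and Rrm2, that probe set carries the Affymetrix suffix x, which marks probes that may also bind other transcripts. Other suffixes, such as the s of Mcm2, Mcm3, Mcm7 and Gins2, were not counted here. Binding of other transcripts was not examined for any member.

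**Figure D2:**
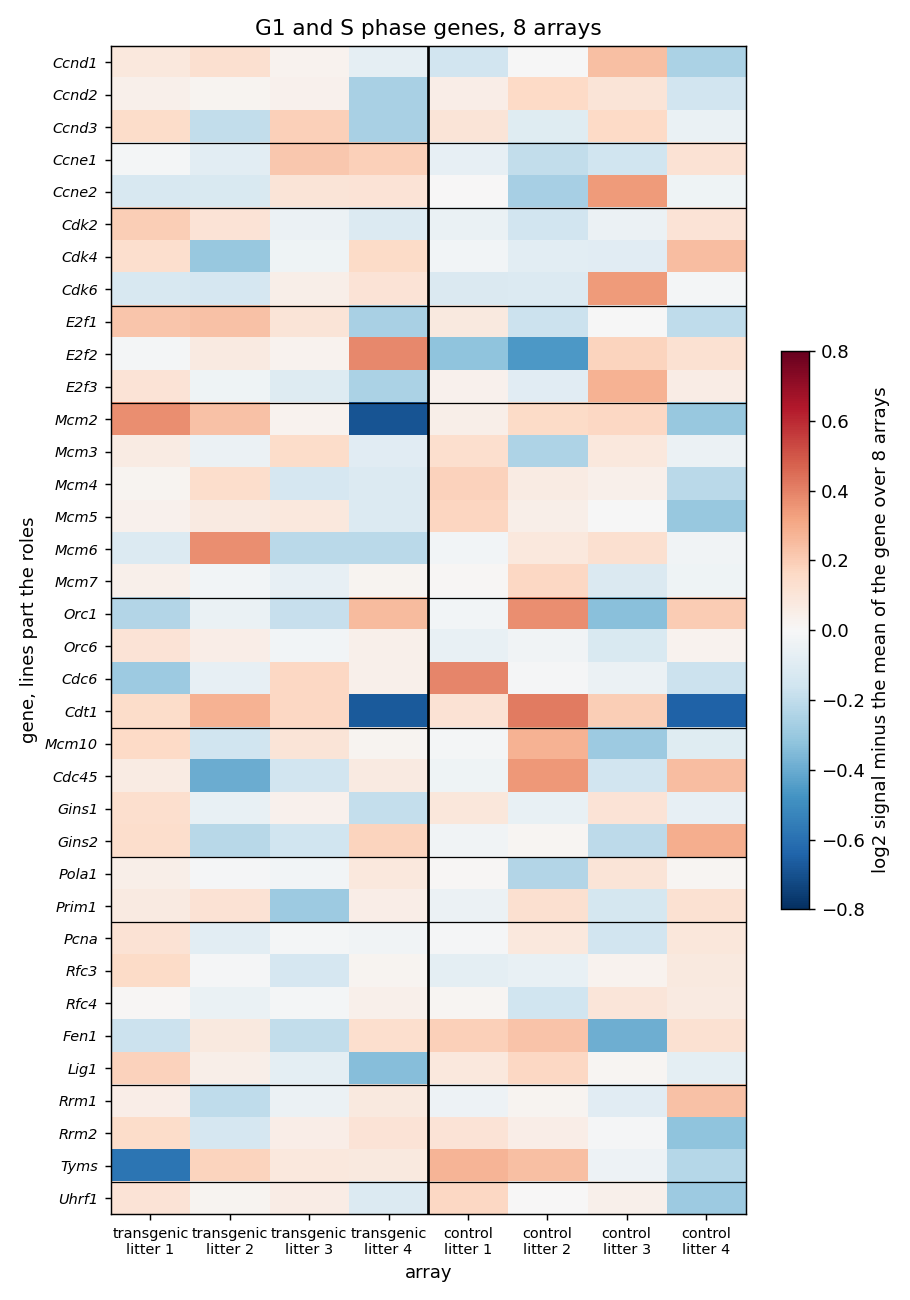
Log2 signal of each of 36 G1 and S phase genes (rows, parted by role) minus the mean of that gene over the 8 arrays (columns, transgenic litters 1 to 4 left and control litters 1 to 4 right). The 4 darkest blue cells are Cdt1 on both arrays of litter 4, Mcm2 in the transgenic sample of litter 4 (831.8) and Tyms in the transgenic sample of litter 1 (106.7).

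The second comparison asked whether these genes differ between litters, with genotype in the model and 2 arrays a litter. Cdt1 and Mcm2 were called by limma's moderated F-test at an adjusted p of 0.05, 2 of 36 members (5.56%), against 1089 of 10989 genes tested (9.91%). Unadjusted p-values under 0.05 were found for 8 of 36 members (22.2%), against 29.9% of all genes. Highest and lowest litter differed by a median of 1.24-fold over the members and 1.29-fold over all genes. Both shares of members lay below those of all genes, but this order rests on taking 1 probe set a gene. With the mean of a gene's probe sets, 13 of 36 members had an unadjusted p under 0.05, against 3377 of 10989 genes.

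Cdt1 was lowest in litter 4 in both genotypes, at 2075 and 2113, while the other 6 arrays lay between 3604 and 4433. The mean of litter 4 was 2.01-fold under that of litter 2, the highest (limma F-test adjusted p = 0.000443). A second probe set of Cdt1 gave 521.8 and 643.9 in litter 4, below its other 6 arrays, which lay between 958.9 and 1185 (adjusted p = 0.00955). Across the other fits with genotype in the model, the adjusted p of Cdt1 lay between 0.000132 and 0.0129, except for 0.0938 without an intensity trend and 0.341 without litter 4.

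Mcm2, a subunit of the helicase that Cdt1 loads, gave 1759, 1598, 1384 and 831.8 in transgenic samples, against 1401, 1507, 1521 and 1096 in controls. Both values of litter 4 lay below the other 6 arrays, and litters 1 and 4 differed 1.63-fold (limma F-test adjusted p = 0.0319). A second probe set stood at an adjusted p of 0.0583. The call was lost without transgenic replicate 2, 3 or 4 (adjusted p = 0.101, 0.0619 and 0.246), without control replicate 2 or 3 (0.0978 and 0.0713), and without litter 2 or litter 4 (0.0874 and 0.820). It was also lost without a filter (0.0717) and without an intensity trend (0.186).

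**Figure D3:**
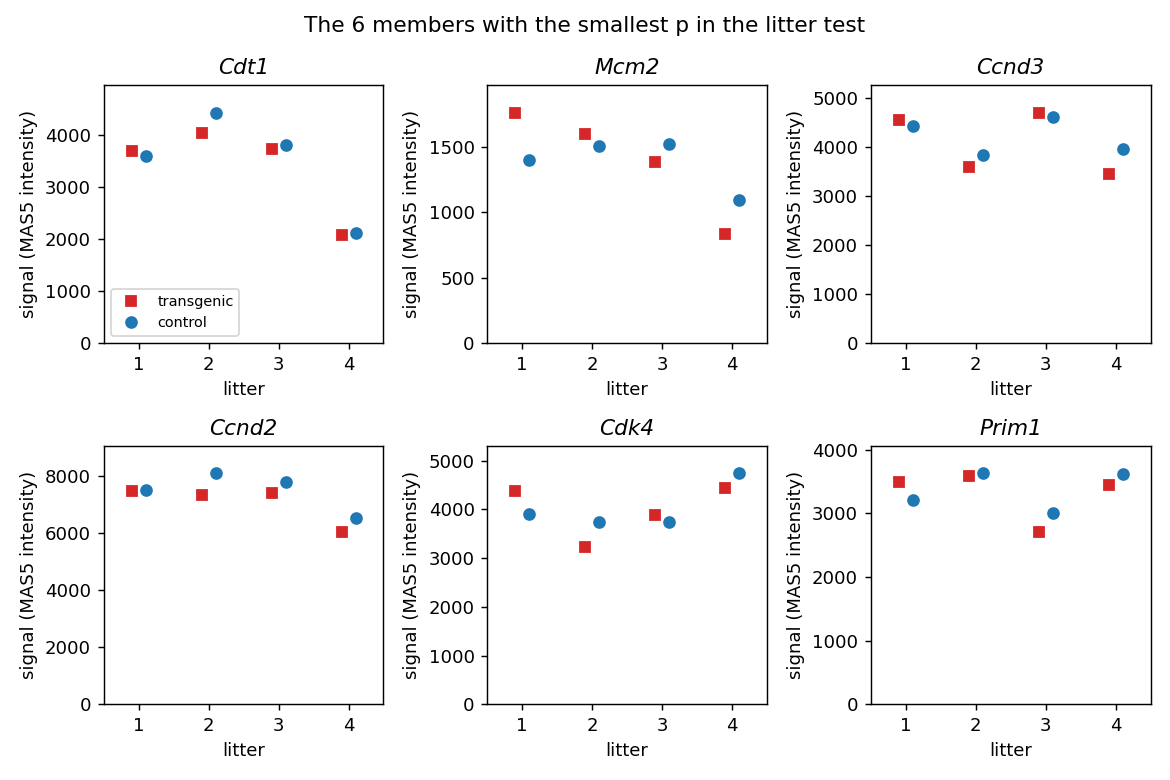
Signal (MAS5 intensity, y axis from 0) on each array by litter (x axis) for the 6 members with the smallest p in the litter test, transgenic as squares and control as circles, 1 array each. Cdt1, Mcm2 and Ccnd2 have both arrays of litter 4 below the other 6, while Cdk4 is highest there, at 4433 in transgenic and 4739 in control.

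Other members did not share one direction in litter 4. Both arrays of litter 4 lay below the other 6 for 8 members (22.2%), Ccnd2, E2f1, Mcm2, Mcm5, Cdt1, Gins1, Lig1 and Uhrf1, against 11.4% of all genes tested; this count was chosen after the values were seen and has no test. Litter 4 was the lowest litter for 15 members (41.7%), against 29.0% of all genes tested. It was the highest for 11 of 36 members, among them Cdk4, Rrm1, Gins2 and Orc1, against 3536 of 10989 genes. Ccnd3 came nearest to a call after Cdt1 and Mcm2 and was low in litters 2 and 4 and high in litters 1 and 3 (adjusted p = 0.0735). It was called with arrays centred on their medians (adjusted p = 0.0319), and Ccnd2, at 0.108 here, was called after quantile normalization (0.0439). Further probe sets of Ccnd1, Cdk6 and Mcm3 were called where the one that stands for the gene was not (adjusted p from 0.0177 to 0.0427). In those of Ccnd1 and Mcm3, both arrays of litter 4 lay below the other 6, while that of Cdk6 was highest in litter 3.

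Array by array, the median deviation of the 36 members from their own means lay between -0.03 and 0.07 log2.

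A sign of RNA integrity moved with litter 4. The 5-prime to 3-prime signal ratio of beta-actin was 0.475 in the transgenic and 0.512 in the control sample of litter 4, and between 0.590 and 0.647 on the other 6 arrays. For Gapdh it was 1.14 and 1.17 in litter 4, and between 1.26 and 1.36 elsewhere. Litter and this ratio cannot be told apart, since both arrays of litter 4 had the lowest ratios.

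**Figure D4:**
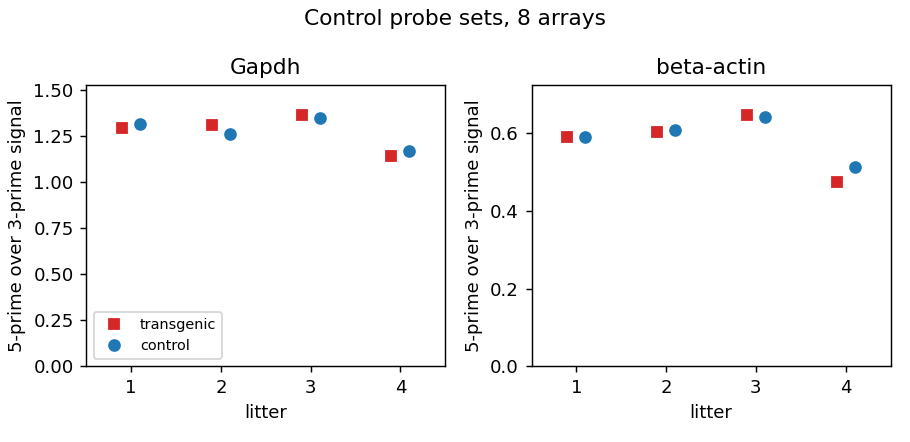
Ratio of 5-prime to 3-prime signal (y axis from 0) of Gapdh and beta-actin, from control probe sets, by litter (x axis), transgenic as squares and control as circles, 1 array each. Both arrays of litter 4 have the lowest ratios for both transcripts, 1.14 and 1.17 for Gapdh.

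Markers of other cells in a rib digest were summed by array. The summed signal of 8 skeletal muscle markers was 35610 in the transgenic and 37340 in the control sample of litter 4, and 34060 and 35050 in litter 1, while litters 2 and 3 lay between 24810 and 26370. For 8 neutrophil markers, 4 of them under the signal filter, the sums of litters 1 to 4 were 2847, 1963, 2616 and 3782 in transgenic samples, against 4777, 1957, 2667 and 5749 in controls. For 8 erythroid markers, 6 of them under the filter, they were 4059, 3469, 2661 and 4219 in transgenic samples, against 4910, 4430, 2487 and 4946 in controls. Neither sum set litter 4 apart, since the control of litter 1 lay above the transgenic sample of litter 4 in both. The 12 chondrocyte markers summed to 289300 and 282700 in litter 4, the lowest of the 8 arrays, against 296200 to 377800 elsewhere. The 7 endothelial markers, at 1064 and 1178, were lowest there too. In litter 4, the 7 perichondrium and fibroblast markers summed to 151700 in the transgenic and 167600 in the control sample, against 162900 to 181400 elsewhere. The 8 macrophage markers, 4 of them under the filter, gave 856.2 and 1166 there, against 1074 to 1550. The 5 osteoblast markers gave 1585 and 1721, against 1567 to 2569. In none of these did both arrays of litter 4 lie lowest. The part of these cells in the litter differences of Cdt1 and Mcm2 was not tested.

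Other genes of replication, from a list of 62 with 58 tested, also gave 0 calls between genotypes. Their differences were positive for 31 and negative for 27, with a median of 0.01 log2. Wdhd1, which links the helicase to polymerase alpha, had the smallest unadjusted p: it gave 949.0, 916.6, 833.6 and 943.6 in transgenic samples, against 830.4, 702.2, 738.8 and 800.4 in controls (0.24 log2, SE 0.11, limma adjusted p = 0.9999). Its 4 transgenic values all lay above the control values. Groups did not overlap for 1 of the 58 genes, this one, against 0.992% of all genes tested. The chromatin remodeller gene Hells stood at 0.16 log2, the repressor E2f6 at -0.28 and the histone chaperone gene Asf1b at -0.17 log2.

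Between litters, 4 of the 58 were called (6.9%). E2f8, a repressor of E2F targets, gave 608.1, 470.0, 652.5 and 308.3 in transgenic samples, against 586.2, 471.9, 573.7 and 238.4 in controls. Donson, which acts at replication forks, gave 480.4, 539.2, 489.3 and 277.7 in transgenic samples, against 370.7, 517.4, 520.8 and 234.6 in controls. Both genes were lowest in litter 4 in both genotypes, as Cdt1 was. Pole, of polymerase epsilon, was highest in litter 2, and Rpa3, of the single-strand binding complex, was highest in litter 4 (2965 in transgenic and 3043 in control).

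Genes of the next phases gave a like picture. Of 36 genes of G2 and mitosis tested, 0 were called between genotypes (median 0.00 log2), with Ect2 and Aurkb at 0.15 and 0.13 and Bub3 and Kif23 at -0.16 and -0.17 log2. The kinetochore gene Nuf2 was the 1 called between litters, lowest in litter 1 (398.4 in transgenic and 426.5 in control). Of 8 cyclin-dependent kinase inhibitors and pocket proteins tested, 0 were called between genotypes. A positive difference was found for 7 of them, against 5567 of 10989 genes tested. Their median was 0.02 log2, with Rbl2 at 0.09, Cdkn1a at 0.18 and Cdkn1c at -0.06 log2. Whether these signs depend on the scaling was not examined. Cdkn1a, which encodes the p53-induced inhibitor of cyclin-dependent kinases and binds Pcna, was called between litters. It gave 603.7 in the transgenic and 650.3 in the control sample of litter 4, while its other 6 arrays lay between 953.7 and 1497 (2.22-fold between litters 2 and 4).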

How the data were processed

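What the authors deposited is a linear intensity for each probe set on each array, and the submitters' processing notes name MAS5 without a version. Trimmed means (2% off each end, all 45101 probe sets) were 500.003 on every array, so the values had been scaled before deposit, and medians without control probe sets lay between 106.4 and 121.0. The 64 Affymetrix control probe sets were left out of the tests.

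An offset of 22.1, below which 20% of the signals fall, was added before taking log2. The brighter part of the probe sets, those averaging 110.03 or more (22519, standing for 10989 genes), was tested with limma 3.58.1 in R 4.3.3. Its lmFit and eBayes were run with a trend on intensity, two-sided, and p-values were adjusted by Benjamini-Hochberg over all probe sets tested (threshold 0.05). Genotype was fitted without covariates on all 8 arrays. Litters were compared by limma's moderated F-test, genotype being kept as a term. Both steps were run on simulated data, with planted differences larger than any fitted for the members. Those runs do not show how well smaller differences are found. The number of arrays limits precision. Signals of probe sets were ranked to choose which stands for a gene or a role, and that rank says nothing of transcript levels.

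Replicate numbers pair the samples because each marks a litter in the labels; deviations of same-numbered arrays correlated at 0.0251, 0.434, 0.376 and 0.379. The members and lists were chosen with earlier results of these data known. Values in every sample are given for the member of each role with the highest signal and the 3 with the smallest p in each test; from other lists, genes called between litters or with the smallest genotype p in each direction are named. Alternatives covered the offset, filter, normalization, moderation, litter block, other probe sets and left-out arrays and litters.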

Additional observations from a re-analysis of the deposited data

Results flagged for a closer look

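Within each genotype, the gap between the highest or lowest of the 4 samples and its neighbour was set against the whole range for Hoxc8 and the 36 G1 and S phase genes, 74 groups of values. In 3 groups a sample stood apart by Dixon's 95% critical value, where chance gives about 1 in 20. Ccnd2 was low at 6037 in transgenic replicate 4, the next value being 7334. Mcm6 was high at 3557 in transgenic replicate 2, the next being 2543. Tyms was low at 106.7 in transgenic replicate 1, the next being 182.5.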

How the results depend on the processing

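Between genotypes, 0 members and 0 probe sets were called by limma in every fit run, the replicate block included (0 members, and 0 with an unadjusted p under 0.05). The replicate block changed no other call. The members' median difference lay between -0.0310 and 0.0052 log2 (the highest without replicate 3) when arrays or litters were left out. Single members gave 785 values over the other fits, of which 0 were called (smallest adjusted p 0.9997) and 83, from 27 genes, had the opposite sign.

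Between litters, 2 members and 2027 probe sets were called. Without a filter the counts were 1 and 995. Without an intensity trend they were 0 and 0, with 2 members and 4916 probe sets at an unadjusted p under 0.05 and a smallest adjusted p of 0.0866. Quantile normalization gave 3 members (Ccnd2 added) and median centring 3 (Ccnd3 added). With the mean of all probe sets of a gene, 7 members were called: Cdk4, Cdk6, Cdt1, Mcm2, Mcm3, Mcm5 and Prim1. In that fit 13 members and 3377 of all genes had an unadjusted p under 0.05. How many of all genes were called in it is not given, so the 7 have no background share. Leaving out arrays or litters gave 0 to 2 members and 558 to 3080 probe sets, the lowest without control replicate 2 and the highest without litter 1. The 0 members arose without litter 4, where 4 had an unadjusted p under 0.05. The causes were not tested. Where 1 array was left out, the other array of that litter stood alone and was assumed to vary like the rest. With the litter as a block, Tyms and E2f2, whose signals lay nearest the filter, had the largest SE of the members (0.21 and 0.17).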
